A study of Mus musculus with 24 samples.

Results

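The 10 genes described here, Zscan4a, Zscan4c, Zscan4d, Zscan4f, Tcstv1, Tcstv3, Tdpoz3, Tdpoz4, Dub1 and Zfp352, are marker genes of the 2-cell-like state of mouse embryonic stem cells (mESCs). They were taken by gene symbol from a table of 22609 genes, and all 10 were present and passed the filter on low counts. Poly-A RNA was sequenced in 24 libraries of E14TG2a cells, a feeder-free mESC line of strain 129/Ola kept in serum and LIF, with 3 libraries in each of 8 groups. Of the 5 mESC groups, 1 was untransfected, and the other 4 carried a stable short hairpin: shNMC (a control with no mammalian target), shMed12, shCdk8 or shRing1b. The 3 further groups carried shNMC, shMed12 or shCdk8 and had spent 24 h without LIF in 1e-06 M all-trans retinoic acid (RA), so the effects of RA and of LIF removal cannot be told apart. The labels do not state whether each hairpin line is a clone or a pool. They also do not state whether the 3 libraries of a group are separate cultures. The p-values therefore measure only a spread between libraries, which the main fit estimated over all 24 libraries together. The comparisons ask how loss of Med12 or Cdk8, which belong to the kinase module of Mediator, or of Ring1b, the ubiquitin ligase of Polycomb repressive complex 1 encoded by Rnf2, changes these genes. The shZrf1 cells and the untransfected RA cells that the series text mentions were not analysed here.

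In mESC cultures a small and changing share of cells passes through a state that resembles the 2-cell embryo, in which genes of zygotic genome activation are transcribed. The transcription factor Dux switches on many of these genes, Dppa2 and Dppa4 act upstream of it, and histone and DNA methylation enzymes, the CAF-1 chaperone and the Pcgf6 form of Polycomb repressive complex 1 are known to hold the state down. Zscan4 genes encode SCAN-domain zinc finger proteins that are linked to telomere maintenance, and Tcstv1 and Tcstv3 are short transcripts of the 2-cell embryo with the same link. Tdpoz3 and Tdpoz4 encode proteins with MATH and BTB/POZ domains, Dub1 encodes a deubiquitinating enzyme of the Usp17 family, and Zfp352 encodes a zinc finger protein.

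Most of the 10 genes are members of clustered families, which limits what short reads can tell about single copies. The Zscan4 genes and Dub1 (current symbol Usp17la) lie on mouse chromosome 7, the Tcstv genes on chromosome 13, the Tdpoz genes on chromosome 3 and Zfp352 on chromosome 4. The reads were 50 bp long. Of the 50-base windows of its longest transcript, Zfp352 had 92.9% that occur in no other annotated gene, Tcstv1 83.2%, Dub1 79.6% and Tcstv3 68.6%. The share was 58.8% for Tdpoz4, 50.4% for Zscan4d, 36.4% for Zscan4a, 33.8% for Tdpoz3, 14.5% for Zscan4c and 4.7% for Zscan4f. Values of Zscan4c and Zscan4f therefore rest on few distinguishing bases, and no member of the Zscan4 or Tdpoz families can be read as fully separate from its copies. RefSeq lists Zscan4a as a transcribed pseudogene.

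RefSeq promoter sequences (GRCm38.p6) were at hand for 6 of the 10 genes. The 250 bases before the annotated start are shown for the 3 Zscan4 genes, whose levels moved together, and for Zfp352, which shares their response without sharing their sequence. Capitals mark matches, on either strand, to a core of the motif bound by mouse Dux, with 2 free positions, and to TATAAA, the core promoter element bound by the TATA-binding protein. The coordinates are chr7:11005495-11005744 on the plus strand for Zscan4c, chr7:11166149-11166398 on the minus strand for Zscan4d, chr7:11397665-11397914 on the plus strand for Zscan4f and chr4:90218570-90218819 on the plus strand for Zfp352.
Zscan4c: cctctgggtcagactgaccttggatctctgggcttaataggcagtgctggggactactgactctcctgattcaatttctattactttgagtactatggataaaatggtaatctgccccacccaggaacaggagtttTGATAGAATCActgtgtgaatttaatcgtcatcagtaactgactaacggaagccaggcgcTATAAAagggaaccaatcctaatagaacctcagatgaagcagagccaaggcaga
Zscan4d: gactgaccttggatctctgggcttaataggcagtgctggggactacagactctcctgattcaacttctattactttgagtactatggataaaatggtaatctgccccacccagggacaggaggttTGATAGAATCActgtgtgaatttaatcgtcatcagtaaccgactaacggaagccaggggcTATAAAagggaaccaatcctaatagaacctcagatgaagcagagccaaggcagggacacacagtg
Zscan4f: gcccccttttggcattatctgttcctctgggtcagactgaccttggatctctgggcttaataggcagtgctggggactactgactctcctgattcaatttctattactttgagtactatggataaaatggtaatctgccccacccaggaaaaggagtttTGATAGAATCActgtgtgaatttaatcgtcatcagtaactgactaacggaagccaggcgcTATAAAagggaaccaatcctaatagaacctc
Zfp352: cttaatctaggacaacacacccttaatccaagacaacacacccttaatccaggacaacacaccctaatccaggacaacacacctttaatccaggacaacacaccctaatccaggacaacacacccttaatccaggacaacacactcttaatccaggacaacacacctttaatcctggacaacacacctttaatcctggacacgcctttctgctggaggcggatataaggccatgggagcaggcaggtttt
The first capital stretch in each Zscan4 promoter is TGATAGAATCA, which matches the Dux-type motif on the opposite strand (all letters fixed except the AG after TGAT), and it begins 114 bases before the annotated start of Zscan4c, 125 before that of Zscan4d and 91 before that of Zscan4f. TATAAA follows it and begins 54, 65 and 31 bases before those starts. The Dux-type letters occur in 0.21% of 32851 promoter windows of 300 bases and TATAAA in 13.62%, and neither is in the windows of Tdpoz4, Dub1 or Zfp352. None of the 6 windows holds CACGTG (an E-box, in 7.15% of all windows), TGCACAC (a Zscan4-type motif, in 4.4%) or the core of the motif of the human factor DUX4 (in 0.14%). These motifs do not overlap one another in the 6 windows. Aligned over all 300 bases, the Zscan4 windows were 90.4% (Zscan4c and Zscan4d), 85.1% (Zscan4c and Zscan4f) and 77.5% (Zscan4d and Zscan4f) identical, and all other pairs were 46.9% to 51.6% identical.

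The libraries fall into 2 technical sets. The 6 untransfected and shRing1b libraries held 27404360 to 34110845 gene counts with 20.02% to 21.7% of reads in the entry for several alignments, and the other 18 held 37808426 to 57320128 with 44.1% to 49.1%. A comparison of shRing1b or untransfected cells with any other group crosses these sets. A floor of 3 counts stands for 0.0880 to 0.110 counts per 1000000 unscaled gene counts in the first set and 0.0523 to 0.0794 in the second. All levels in CPM are counts per 1000000 scaled gene counts. Med12 stood at 35.2 to 46.2 CPM with shMed12 against 129 to 139.6 with shNMC in mESCs, and Cdk8 at 10.7 to 15.2 with shCdk8 against 50.1 to 56.1. Rnf2 stood at 52.4 and 64.2 CPM in the libraries labelled shRing1b 1 and 2, but at 207 in library 3, against 221 to 303 in untransfected cells, so library 3 goes against its label. The mESC markers Pou5f1, Nanog, Sox2, Zfp42, Esrrb and Dppa5a were present in every group, with a summed level of 3426 to 4527 CPM in untransfected, shNMC, shCdk8 and shRing1b mESCs, 2665 to 2906 with shMed12 and 1412 to 2497 after RA.

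Summed over the 10 genes, the level was highest with shRing1b (458 ± 302 CPM, mean ± SD, n = 3, as for all groups), followed by RA shMed12 (318 ± 82.9) and shMed12 mESCs (249 ± 63.6). RA shNMC (151 ± 53.9), untransfected cells (103 ± 14.2) and shNMC mESCs (85.9 ± 16.5) came next, and RA shCdk8 (62.0 ± 15.0) and shCdk8 mESCs (36.9 ± 5.76) were lowest. Most neighbours in this order overlapped between libraries. The exceptions were shNMC mESCs (74.1 to 105 CPM) above RA shCdk8 (44.7 to 71.9), and RA shCdk8 above shCdk8 mESCs (30.3 to 40.9). The lowest group mean was the same for all 10 genes taken singly, and the highest for 9, with Tdpoz3 highest in shMed12 mESCs. The first place of shRing1b rested on library 1: without it the mean was 297 CPM, below RA shMed12, and shRing1b was highest for 5 of the 10 genes. In bulk RNA, more cells in the 2-cell-like state and more RNA of these genes per cell cannot be told apart.

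**Figure D1:**
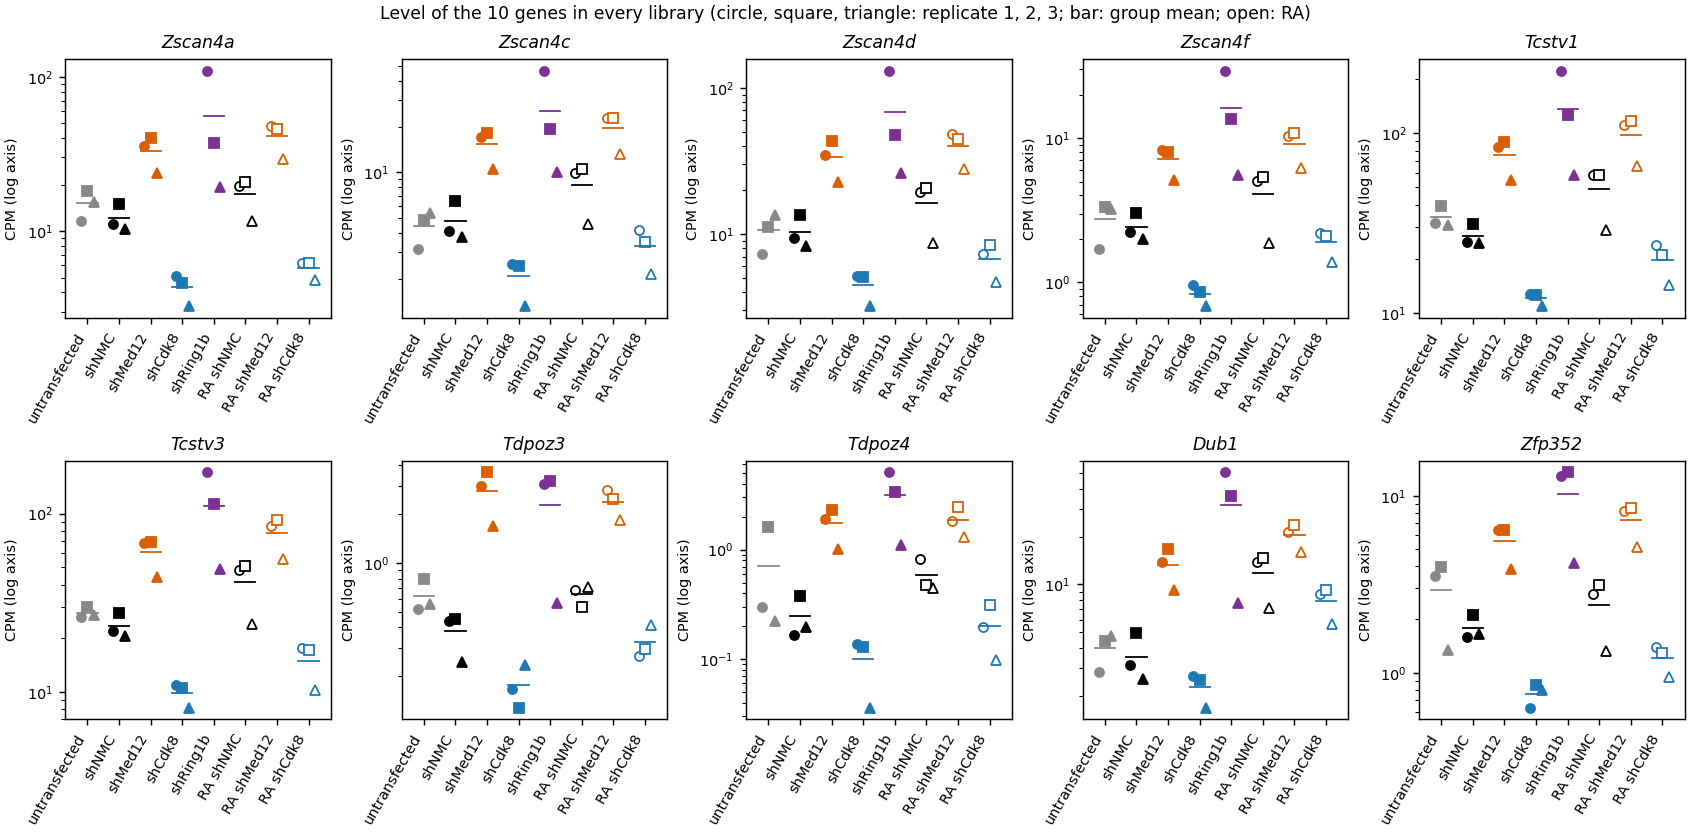
Level of each of the 10 genes in CPM (log axis) in all 24 libraries, by group, with circles, squares and triangles for replicates 1, 2 and 3 and bars for group means. The shRing1b libraries spread most (summed level 182 to 780.4 CPM) and the shCdk8 mESC group has the lowest mean for every gene. All 3 shCdk8 mESC libraries are below all 21 others for 4 of the 10, a count for which no share over all genes was computed.

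Per kilobase of the longest transcript, the Tcstv genes were the most abundant of the 10 in shNMC mESCs, with a mean of 30.0 CPM per kb for Tcstv3 and 21.0 for Tcstv1. The Zscan4 genes stood at 1.32 (Zscan4f) to 5.34 (Zscan4a) CPM per kb, Dub1 at 1.32, Zfp352 at 0.786, Tdpoz3 at 0.344 and Tdpoz4 at 0.221. Divided by unique windows only, Zscan4f stood at 29.1 CPM per kb, so its place depends on how shared sequence is treated. Tdpoz4 was the least abundant, with 35 counts over the 3 shNMC libraries and 13 over the 3 shCdk8 libraries, which makes its folds imprecise.

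The 10 genes varied together. Across the 24 libraries the Pearson correlation of log2 CPM was 0.823 to 0.997 over the 45 pairs of genes (median 0.937), a description over libraries that share their groups and sequencing sets. After subtraction of each group's mean it was 0.480 to 0.985 (median 0.800), so the genes also moved together within groups when all 8 groups were pooled. The pool includes the shRing1b libraries, whose summed levels were 780, 413 and 182 CPM, and copies of a family can share reads. The part of either in the correlation was not tested. Some of the variation within groups follows the replicate number. Library 3 had the lowest summed level in all 3 mESC hairpin groups of the larger set and all 3 RA groups, at 0.490 to 0.807 of the mean of libraries 1 and 2. It was lowest for all 10 genes with shMed12 in either state, for 9 with RA shNMC and RA shCdk8, and for 8 with shNMC and shCdk8 in mESCs. In untransfected cells library 3 stood at 0.990 of the mean of the others, and with shRing1b at 0.305.

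With shMed12 in mESCs all 10 genes rose against shNMC, where 20.6% of all 16280 genes tested rose and 40.5% changed (edgeR quasi-likelihood test, Benjamini-Hochberg adjusted p under 0.05). The log2 changes were 1.38 to 2.84 with a median of 1.65, beside a median of -0.01 over all genes tested. Every shMed12 library lay above every shNMC library for each of the 10 genes, which held for 28.5% of all genes in that direction. The rise was called in all 10 genes under each alternative tried, including each left-out library.

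Among the Zscan4 genes, Zscan4d stood at 9.34, 13.4 and 8.23 CPM in shNMC libraries 1, 2 and 3 and at 34.6, 43.2 and 22.7 with shMed12. The log2 change was 1.69 (SE 0.44, edgeR adjusted p = 0.00353), and the lowest shMed12 library was above the highest shNMC library. Zscan4a, Zscan4c and Zscan4f changed by 1.45 (SE 0.40), 1.68 (SE 0.43) and 1.55 (SE 0.44). Tcstv1 stood at 24.8, 31.3 and 24.6 CPM with shNMC and at 83.8, 89.2 and 55.0 with shMed12 (log2 1.5, SE 0.34, edgeR adjusted p = 0.00120). Its neighbour Tcstv3 changed by 1.38 (SE 0.33), the smallest of the 10.

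The Tdpoz genes had the highest log2 changes of the 10 with shMed12, from low levels. Tdpoz3 stood at 0.436, 0.452 and 0.246 CPM with shNMC and at 2.98, 3.62 and 1.69 with shMed12 (log2 2.84, SE 0.45, edgeR adjusted p = 2.57e-05). Tdpoz4 stood at 0.166, 0.374 and 0.197 CPM with shNMC and at 1.92, 2.31 and 1.01 with shMed12 (log2 2.79, SE 0.62, edgeR adjusted p = 0.00107). For Dub1, the deubiquitinase, the values were 3.09, 4.92 and 2.53 CPM with shNMC and 13.9, 16.6 and 9.16 with shMed12 (log2 1.90, SE 0.45, edgeR adjusted p = 0.00172). Zfp352, the gene with the most unique sequence, stood at 1.6, 2.12 and 1.65 CPM with shNMC and at 6.39, 6.36 and 3.85 with shMed12 (log2 1.62, SE 0.40, edgeR adjusted p = 0.00253).

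Markers of other cell types moved in the same libraries. The summed level of 6 trophectoderm markers found of 7 listed (Cdx2, Hand1, Krt7, Krt8, Krt18 and Elf5) was 522 to 667 CPM with shMed12 in mESCs against 14.3 to 19.2 with shNMC, and 633 to 827 against 27.9 to 35.1 after RA. The 7 fibroblast markers summed to 29.2 to 32.01 CPM against 14.6 to 16.5 in mESCs and to 58.2 to 70.7 against 36.3 to 38.6 after RA, and the defining marker Lum was at 0 in all 3 shNMC libraries of either state. The 6 primitive endoderm markers summed to 30.0 to 35.9 CPM against 45.3 to 61.2 in mESCs, the opposite direction, and to 70.2 to 78.4 against 74.4 to 95.7 after RA, with overlap. Their part in the result was not tested.

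With shCdk8 in mESCs the 10 genes lay in the opposite direction, and 2 of them passed the test. Zscan4a fell from 11.2, 15.0 and 10.3 CPM with shNMC to 5.08, 4.60 and 3.27 with shCdk8 (log2 -1.5, SE 0.42, edgeR adjusted p = 0.0478). Tcstv3 fell from 21.9, 27.7 and 20.5 CPM to 10.9, 10.4 and 8.14 (log2 -1.25, SE 0.34, edgeR adjusted p = 0.0419). The background was low here, with 1.42% of all genes tested falling and 3.66% called in either direction.

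The other 8 genes did not pass, with log2 values of -1.55 (Zscan4f) to -0.65 (Dub1) and a median over the 10 of -1.22 beside a median near 0 over all genes. For 9 of the 10, all but Dub1, every shCdk8 library was below every shNMC library, as for 15.8% of all genes. Zfp352, for instance, stood at 1.6, 2.12 and 1.65 CPM with shNMC and at 0.635, 0.851 and 0.794 with shCdk8 (log2 -1.23, SE 0.44, edgeR adjusted p = 0.127). Tcstv1 stood at 12.7, 12.6 and 11 CPM with shCdk8 against 24.6 to 31.3 (log2 -1.16, SE 0.34, edgeR adjusted p = 0.0637). The count of calls depended on the fit. It was 7 of 10 lower with the 18 libraries of the larger set alone (6.96% of genes lower there). With DESeq2 it was 5 (498 of 16280 genes lower), and without any one of the 6 libraries it was 0. Markers of other cell types moved in the same libraries, without overlap for any of the 4 lists. With shCdk8 and with shNMC respectively, the primitive endoderm markers summed to 76.2 to 108 and 45.3 to 61.2 CPM, the fibroblast markers to 18.3 to 19.5 and 14.6 to 16.5, the trophectoderm markers to 21.1 to 21.5 and 14.3 to 19.2, and the mESC markers to 3881 to 4047 and 4268 to 4390. Their part in the result was not tested.

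**Figure D2:**
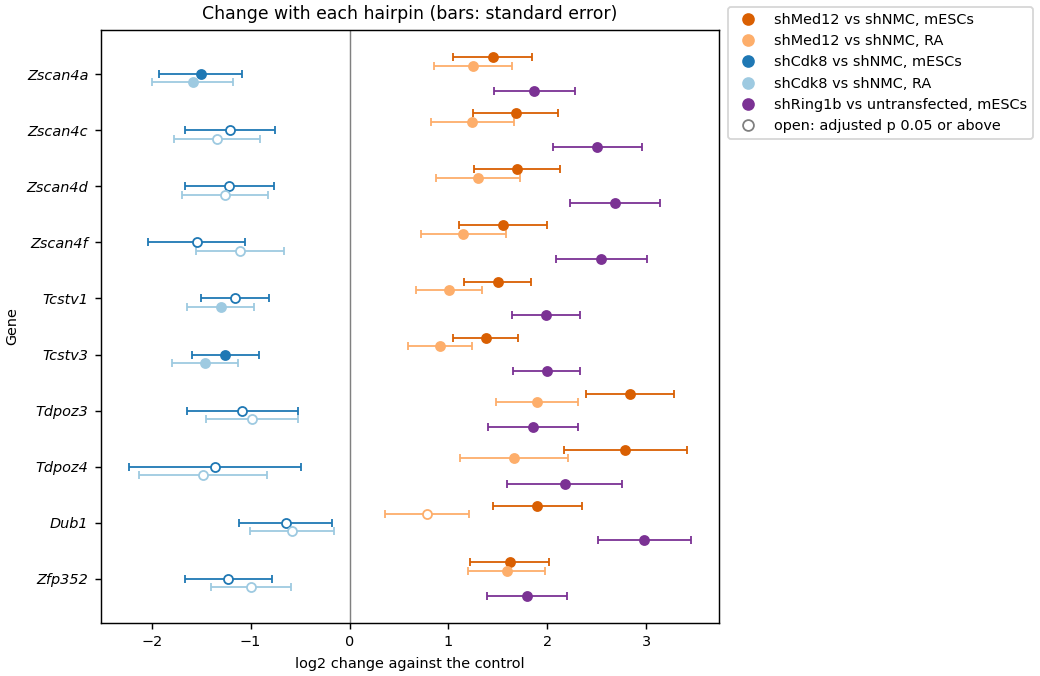
Log2 change of each gene against its control, with standard errors, for shMed12 and shCdk8 against shNMC in mESCs and after RA and for shRing1b against untransfected mESCs; filled points have an edgeR adjusted p under 0.05. All 10 genes lie above 0 with shMed12 and shRing1b and below 0 with shCdk8, where 2 pass in mESCs and 3 after RA.

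With shRing1b all 10 genes rose against untransfected mESCs, which belong to the same technical set, where 9.68% of all genes tested rose and 15.1% changed (edgeR, adjusted p under 0.05). The log2 changes were 1.8 (Zfp352) to 2.98 (Dub1) with a median of 2.09, beside 0.02 over all genes. The group mean hides a wide spread between libraries, which the values by library show. The test takes its spread from all 8 groups together, so its SE and p do not rest on the shRing1b and untransfected libraries alone. For 8 of the 10 genes all 3 shRing1b libraries were above all 3 untransfected libraries, as for 8.52% of all genes, and Tdpoz3 and Tdpoz4 overlapped.

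Library 1 was highest for 8 of the 10 genes, at 4.41 (Zfp352) to 12.7 (Dub1) times the mean of the untransfected libraries, with a median ratio of 7.20. Library 2 stood at 2.47 (Zscan4a) to 9.03 (Dub1) times that mean (median 4.55), and was the highest for Tdpoz3 and Zfp352. Library 3, in which Rnf2 was at 0.793 of the untransfected mean, stood at 0.903 (Tdpoz3) to 2.45 (Zscan4d) times it (median 1.74) and was lowest for all 10. In libraries 1 and 2, with Rnf2 at 0.20 and 0.245, all 10 genes were above every untransfected library, and in library 3 this held for 8. The share of all genes that lay so was not computed for single libraries, so these counts have no background beside them.

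**Figure D3:**
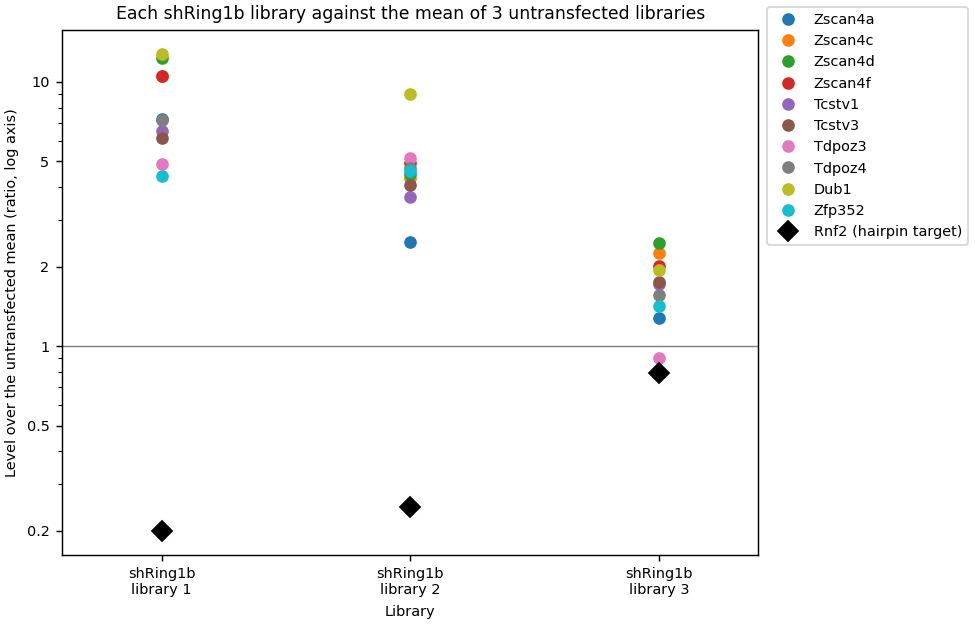
Level of each of the 10 genes and of Rnf2, the hairpin's target, in each shRing1b library, as a ratio to the mean of the 3 untransfected libraries (log axis). Rnf2 is at 0.20, 0.245 and 0.793 in libraries 1, 2 and 3, and the median ratio of the 10 genes is 7.20, 4.55 and 1.74.

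Zscan4d stood at 131, 47.6 and 26.0 CPM in shRing1b libraries 1, 2 and 3 and at 7.27, 11.1 and 13.4 in untransfected cells (log2 2.68, SE 0.45, edgeR adjusted p = 0.000537). Zscan4a had 109, 37.4 and 19.3 CPM against 11.6, 18.2 and 15.5, so its library 3 was barely above the control range (log2 1.87, SE 0.41, edgeR adjusted p = 0.00411). Zscan4c and Zscan4f changed by 2.51 (SE 0.45) and 2.55 (SE 0.46). For the Tcstv pair, Tcstv1 had 222, 126 and 58.8 CPM against 31.1 to 39.5, and Tcstv3 170.5, 113 and 48.6 against 26.4 to 29.8. Their log2 changes were 1.99 (SE 0.35, edgeR adjusted p = 0.000668) and 2.0 (SE 0.34, edgeR adjusted p = 0.000547).

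Dub1 changed most, with 50.7, 35.9 and 7.69 CPM against 2.82, 4.39 and 4.72 (log2 2.98, SE 0.47, edgeR adjusted p = 0.000278). Zfp352 had 12.9, 13.5 and 4.19 CPM against 3.52, 3.95 and 1.34 (log2 1.8, SE 0.40, edgeR adjusted p = 0.00500), so libraries 1 and 2 were alike for it. Tdpoz3 had 3.07, 3.22 and 0.564 CPM against 0.519, 0.798 and 0.557 (log2 1.86, SE 0.46, edgeR adjusted p = 0.00893), with library 3 inside the control range. Tdpoz4 had 5.05, 3.33 and 1.10 CPM against 0.297, 1.6 and 0.223 (log2 2.18, SE 0.59, edgeR adjusted p = 0.0155), with 1 untransfected library above shRing1b library 3.

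Without shRing1b library 3, whose Rnf2 level goes against its label, all 10 genes again rose, by 2.18 to 3.45 (median 2.48), with 14% of all genes rising and 23.7% changed. Against shNMC, from the other technical set, all 10 rose by 2.18 to 3.65, where 12.9% of all genes rose. With only the 6 libraries of this comparison in the edgeR fit, 0 of the 10 and 0 of 14378 genes passed. The edgeR adjusted p was 0.156 to 0.374 for the 10. All 10 had an unadjusted p under 0.05 there, as did 1626 of the 14378 genes. DESeq2 on all 24 libraries called all 10 higher, where it called 1783 of 16280 genes higher. Without shRing1b library 1, or without untransfected library 1 or 3, Tdpoz4 alone no longer passed (edgeR adjusted p of 0.0582 to 0.0883).

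Markers of other cell types differed between the shRing1b libraries too. The 6 primitive endoderm markers summed to 109, 611 and 35.0 CPM in libraries 1, 2 and 3, against 64.2 to 92.3 in untransfected cells. The trophectoderm markers summed to 67.1, 85.2 and 24.4 CPM against 14.9 to 23.3, the fibroblast markers to 29.8, 18.8 and 47.1 against 14.6 to 23.5, and the mESC markers to 3947, 4276 and 3426 against 4039 to 4527. Library 3 was the lowest of the 3 for the primitive endoderm, trophectoderm and mESC lists and the highest for the fibroblast list. Their part in the result was not tested.

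The control hairpin itself was compared with untransfected cells, across the technical sets. None of the 10 genes passed the edgeR test, 1 had an unadjusted p under 0.05, and DESeq2 also called 0; of all genes 0.00614% were called. The log2 values were -1.47 to 0.10 with a median of -0.28.

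After 24 h of RA, 9 of the 10 genes rose with shMed12 against shNMC, where 21.3% of all genes tested rose and 41.9% changed (edgeR, adjusted p under 0.05). The log2 values were 0.78 to 1.90 with a median of 1.24, and every RA shMed12 library was above every RA shNMC library for all 10, as for 30.2% of all genes. Dub1 did not pass, with 21.4, 23.6 and 16.1 CPM against 13.8, 14.6 and 7.06 (log2 0.78, SE 0.42, edgeR adjusted p = 0.141). Tdpoz3 was again the one with the largest log2 change, at 2.84, 2.48 and 1.85 CPM against 0.679, 0.532 and 0.708 (log2 1.90, SE 0.41, edgeR adjusted p = 0.000859).

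Zfp352 stood at 8.22, 8.56 and 5.13 CPM against 2.79, 3.14 and 1.32 after RA (log2 1.59, SE 0.39, edgeR adjusted p = 0.00232), close to its log2 change in mESCs. Zscan4d stood at 48.2, 44.3 and 27.6 CPM against 19.5, 20.6 and 8.62 (log2 1.30, SE 0.43, edgeR adjusted p = 0.0178). Tcstv3 stood at 85.3, 92.2 and 55.5 CPM against 48.3, 50.9 and 24.0 (log2 0.92, SE 0.33, edgeR adjusted p = 0.0277). In each case library 3 of both groups was lowest, and RA shMed12 library 3 was still above RA shNMC libraries 1 and 2. The count fell to 3 of 10 without RA shMed12 library 1 or library 2 and to 2 without RA shNMC library 3.

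With shCdk8 after RA, 3 of the 10 genes fell against shNMC, where 3.64% of all genes tested fell and 7.73% changed. Zscan4a stood at 6.25, 6.20 and 4.82 CPM against 19.6, 20.8 and 11.6 (log2 -1.59, SE 0.41, edgeR adjusted p = 0.0187). Tcstv3 stood at 17.5, 17.1 and 10.2 CPM against 48.3, 50.9 and 24.0 (log2 -1.46, SE 0.33, edgeR adjusted p = 0.00886), and Tcstv1 at 23.9, 21.1 and 14.4 against 58.6, 58.8 and 29.1 (log2 -1.30, SE 0.34, edgeR adjusted p = 0.0198). Zscan4a and Tcstv3 had also passed in mESCs. The other 7 had log2 values of -1.48 (Tdpoz4) to -0.58 (Dub1), and the median over the 10 was -1.28. Primitive endoderm markers summed to 113 to 154 CPM in these RA shCdk8 libraries against 74.4 to 95.7 with RA shNMC, fibroblast markers to 42.9 to 48.8 against 36.3 to 38.6, and mESC markers to 1463 to 1830 against 2044 to 2497, each without overlap. Trophectoderm markers, at 33.3 to 46.0 against 27.9 to 35.1, overlapped, and the part of these markers in the result was not tested.

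In this comparison same-numbered libraries deviated together from their group means, a pairing read from these same data that the labels do not state. With the replicate number as a block, 7 of the 10 genes were lower in the fit over 24 libraries, and all 10 in a fit over the 18 libraries of the larger set (18% of genes lower), with log2 changes of -1.56 to -0.56. Without the block, the 18 libraries gave 9 lower (10.7% of genes lower). The count fell to 0 without RA shCdk8 library 3 or RA shNMC library 1, fell to 1 without RA shCdk8 library 2 or RA shNMC library 2, and rose to 5 without RA shNMC library 3.

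RA itself was compared with mESCs within each hairpin line. In shNMC cells 3 of the 10 genes rose, Dub1, Tcstv1 and Tcstv3, where 27.3% of all genes tested rose and 51.4% changed, so the members' share is near the background. Dub1 rose from 3.09, 4.92 and 2.53 CPM to 13.8, 14.6 and 7.06 (log2 1.74, SE 0.45, edgeR adjusted p = 0.00260), with no overlap between the groups. Tcstv1 and Tcstv3 changed by 0.86 (SE 0.34, edgeR adjusted p = 0.0367) and 0.81 (SE 0.33, edgeR adjusted p = 0.0433), and for both RA library 3 lay within the mESC range. The other 7 had log2 values of 0.43 to 1.22. Only Dub1 passed without either of RA shNMC libraries 1 and 2 or any of the 3 mESC shNMC libraries, and 5 passed without RA shNMC library 3.

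In shCdk8 cells RA raised 2 of the 10, Dub1 and Zscan4f, where 26.7% of all genes tested rose and 51.7% changed. Dub1 stood at 8.73, 9.26 and 5.62 CPM after RA and at 2.65, 2.49 and 1.68 before (log2 1.8, SE 0.46, edgeR adjusted p = 0.00247). Zscan4f stood at 2.20, 2.10 and 1.39 CPM after RA and at 0.966, 0.851 and 0.686 before (log2 1.2, SE 0.49, edgeR adjusted p = 0.0449). The replicate numbers pair these libraries as well, and with the number as a block 4 of the 10 were higher over 24 libraries and 8 over the 18 (36.9% of genes higher). The summed mESC markers were lower after RA in both lines, at 2044 to 2497 against 4268 to 4390 CPM in shNMC cells and 1463 to 1830 against 3881 to 4047 in shCdk8 cells, and their part in the result was not tested. Leaving out 1 library gave 1 to 3 of the 10 genes, with Zscan4f lost without any library but RA shCdk8 library 3.

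In shMed12 cells none of the 10 passed between RA and mESCs by edgeR, 0 had an unadjusted p under 0.05 and DESeq2 called 0, where 37.1% of all genes changed. The log2 values were -0.21 (Tdpoz3) to 0.63 (Dub1) with a median of 0.36. Dub1 stood at 21.4, 23.6 and 16.1 CPM after RA and at 13.9, 16.6 and 9.16 before (SE 0.42, edgeR adjusted p = 0.255), so the groups overlapped.

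**Figure D4:**
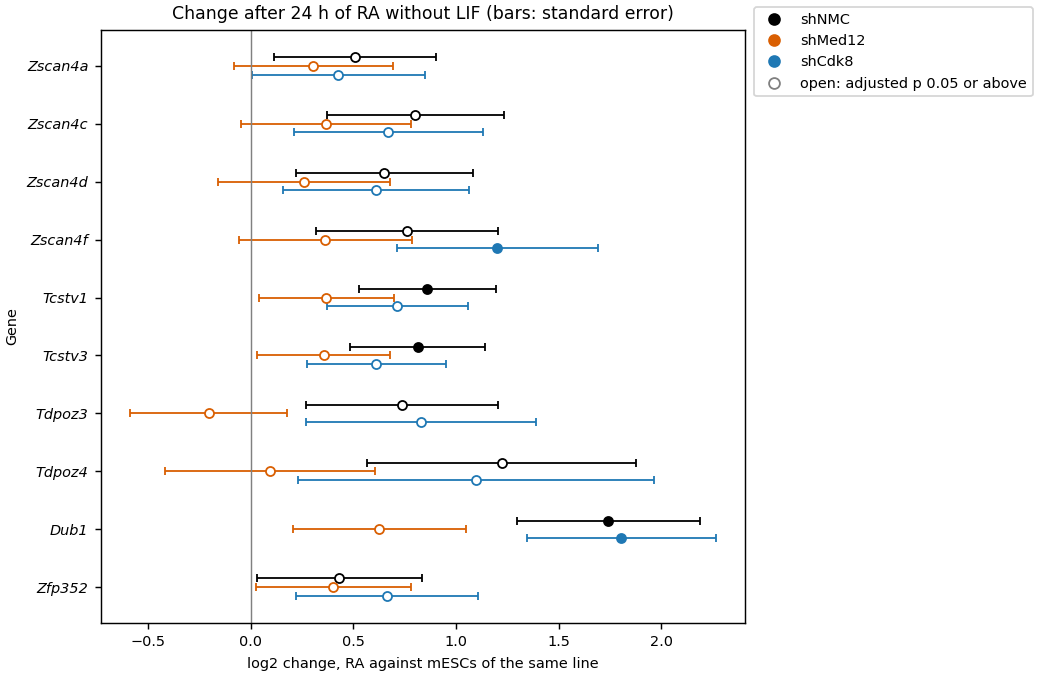
Log2 change of each gene between RA and mESCs of the same hairpin line, with standard errors, for shNMC, shMed12 and shCdk8; filled points have an edgeR adjusted p under 0.05. Dub1 is the gene farthest from 0 in each line, at 1.74 in shNMC, 0.63 in shMed12 and 1.8 in shCdk8 cells.

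Whether the effect of a hairpin differed between the states was tested as an interaction. For shMed12, 0 of the 10 genes passed the edgeR test (5.04% of all genes did), 0 had an unadjusted p under 0.05 and DESeq2 called 0, with log2 differences, RA minus mESCs, of -1.13 to -0.03 and a median of -0.45. For shCdk8, 0 of the 10 passed either tool (0.0369% of all genes did by edgeR) and 0 had an unadjusted p under 0.05, with differences of -0.20 to 0.44 and a median of -0.06. A difference in response between mESCs and RA cells was therefore not shown for any of the 10 genes, nor was its absence.

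Both hairpins target the Mediator kinase module, and the 10 genes stood apart between them. Compared directly, all 10 were higher with shMed12 than with shCdk8 in mESCs, where 18.4% of all genes tested were higher and 35.8% differed, with log2 differences of 2.55 (Dub1) to 4.15 (Tdpoz4) and a median of 2.90. After RA all 10 were higher again, where 21.3% of all genes were higher and 41.4% differed, by 1.37 (Dub1) to 3.14 (Tdpoz4) with a median of 2.57. No library of one line overlapped the other for any of the 10 in either state. All shMed12 libraries lay above all shCdk8 libraries for 27.3% of all genes in mESCs and 30.3% after RA. Zscan4a, for instance, stood at 35.7, 40.1 and 23.9 CPM with shMed12 and at 5.08, 4.60 and 3.27 with shCdk8 in mESCs (log2 2.95, SE 0.43, edgeR adjusted p = 1.21e-05). After RA, Dub1 alone lost its call, without RA shCdk8 library 3 (edgeR adjusted p = 0.0684).

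Other genes known from the 2-cell-like state were read from a list of 48, of which 33 were in the files and 23 were tested. With shMed12 in mESCs 16 of the 23 rose and 0 fell, with a median log2 of 1.64, where 20.6% of all genes rose. With shRing1b 20 rose and 0 fell, with a median of 2.35, where 9.68% of all genes rose. The lowest p with shMed12 belonged to Pramel7, a PRAME-family gene of early embryos, at 6.96 CPM against 0.495 (log2 3.79, SE 0.54, edgeR adjusted p = 8.39e-06). With shRing1b the lowest belonged to Dub1a, a relative of Dub1, at 29.4 CPM against 3.27 (log2 3.17, SE 0.49, edgeR adjusted p = 0.000246). The genes named by rule for both were Pramel7, Dub1a, B020004J07Rik, AF067063 and Gm8300.

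With shCdk8 in mESCs 0 of the 23 passed by edgeR, and 1 higher and 9 lower had an unadjusted p under 0.05. The median log2 over the 23 was -0.88. DESeq2 called 2 of them lower, beside 498 of 16280 genes. Pramel7 lay opposite to the 10 genes with shCdk8, at 1.21 CPM against 0.495 in mESCs and 1.08 against 0.461 after RA. So did Pramel6, at 1.19 against 0.345 in mESCs and 0.786 against 0.376 after RA, and neither was called by edgeR. After RA, shCdk8 gave 2 falls of 23, AF067063 (log2 -1.53) and B020004J07Rik (-1.50), where 3.64% of all genes fell. With shMed12 after RA there were 12 rises and 0 falls, where 21.3% of all genes rose, with the lowest p for Pramel7 (4.15). In shNMC cells RA gave 13 rises and 0 falls of 23, where 27.3% of all genes rose, with the lowest p for Arg2, the mitochondrial arginase, at 10.2 CPM against 2.3 (log2 2.13, SE 0.45, edgeR adjusted p = 0.000492). RA gave 6 rises in shMed12 cells, where 3194 of 16280 genes rose, and 9 in shCdk8 cells, where 26.7% rose, with 0 falls in either. Between shMed12 and shCdk8, 18 of 23 were higher in mESCs and 20 after RA, with 0 lower, beside 18.4% and 21.3% of all genes higher.

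Dux, the transcription factor that switches on this gene set, was near the floor of 3 counts in several libraries. Its shRing1b libraries had 1.82, 0.543 and 0.416 CPM, against 0.260, 0.0798 and 0.520 in untransfected cells (log2 1.66, SE 0.57, edgeR adjusted p = 0.0516), which did not pass. With shMed12 in mESCs it stood at 0.485, 0.333 and 0.363 CPM against 0.291, 0.374 and 0.197 with shNMC, with overlap (log2 0.44, SE 0.54, edgeR adjusted p = 0.555). With shCdk8 in mESCs Dux stood at 0.166, 0.0426 and 0.144 CPM, from 6, 2 and 8 counts. These lay below all 3 shNMC libraries and were not called by edgeR. After RA it stood at 0.314, 0.494 and 0.568 CPM with shCdk8 against 0.483, 0.941 and 0.726 with shNMC, with overlap. In shNMC cells RA raised Dux to 0.483, 0.941 and 0.726 CPM (log2 1.29, SE 0.51, edgeR adjusted p = 0.0370). Dux lies in a repeat array, so these low counts are uncertain.

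Of 5 activators listed, 4 were tested. With shMed12 in mESCs Gata2, a GATA factor that is also a trophoblast gene, rose (log2 3.22, 7.70 CPM against 0.822), Dppa4 rose by 0.24 and Smarca5, a chromatin remodeller, fell by 0.34. With shRing1b Gata2 rose by 1.03 on the log2 scale, and Dppa4 and Smarca5 changed by -0.30 and -0.38. In shNMC cells after RA Gata2 rose by 2.20 and Dppa4 changed by -0.66. With shCdk8 0 of the 4 were called in mESCs. After RA 1 fell with shCdk8, Dppa2, at 95.3 CPM against 129.6 with shNMC (log2 -0.44, edgeR adjusted p = 0.0498), where 3.64% of all genes fell. Of all genes tested, 40.5% changed with shMed12 in mESCs, 15.1% with shRing1b and 51.4% with RA in shNMC cells. The Dppa4 values with shMed12 and with shRing1b are against different controls, from different technical sets. The part of the activators in the result was not tested.

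All 38 repressors listed were tested. With shMed12 in mESCs 5 rose and 7 fell, a share below the 40.5% of all genes that changed, among them Yaf2 (log2 1.07), Ehmt2 (0.84), Mga (-0.70), Hdac2 (-0.59), Dnmt1 (-0.35) and Kdm1a (-0.33), where Ehmt2 is a histone H3K9 methyltransferase and Mga a subunit of the Pcgf6 complex. With shRing1b 1 rose and 6 fell, a share near the 15.1% of all genes that changed, among them Rnf2 itself (-1.27), the RNA-binding protein Lin28a (-0.79), Zfp281 (-0.47), the CAF-1 subunits Chaf1b (-0.39) and Rbbp4 (-0.31), and E2f6, which rose (0.45). With shCdk8 in mESCs, where 3.66% of all genes changed, 1 fell, Kdm1a (-0.27), and 0 rose, with 2 higher and 9 lower at an unadjusted p under 0.05. DESeq2 called 0 higher and 3 lower there, beside 649 higher and 498 lower of 16280 genes. In shNMC cells RA gave 20 falls and 2 rises, where 51.4% of all genes changed, with 3925 of 16280 falling and 4438 rising. Among the falls were L3mbtl2 (-1.09) and Pcgf6 (-0.57) of the Pcgf6 complex, Uhrf1 (-0.88), Rif1 (-0.88) and Chaf1b (-0.69). Median log2 values over the 38 were -0.04 with shMed12, -0.13 with shRing1b and with shCdk8, and -0.32 with RA, beside -0.01 to 0.02 over all genes.

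Genes outside the 10 whose log2 CPM was most like their mean profile over the 24 libraries were Usp17l5 (Pearson r = 0.994), Gm5039 (0.992), Gm2022 (0.989) and Zscan4e (0.986), followed by Cml2 (0.985), AF067063 (0.985), Gm2016 (0.984) and BC147527 (0.983). Over the 18 libraries of the larger set the same 8 stood at 0.980 to 0.992. Usp17l5 and Zscan4e belong to the families of Dub1 and the Zscan4 genes and can share reads with them. The correlations describe libraries that share groups and sequencing sets.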

How the data were processed

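Deposited for each library was a table of raw counts by gene symbol, which the authors had not normalised. The submitters' processing notes name STAR 2.3.1z13, HTSeq 0.6.1p1, SAMtools 1.2, bcl2fastq 1.8.4 and DESeq2 1.6.3, and build mm9. Which annotation was counted, and with which strand setting, is not given in the sources used here. Entries naming no gene (5 per file), which hold reads with several alignments, stayed out of library sizes, so reads from identical copies may be lost or given to 1 copy.

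All 24 libraries entered 1 edgeR 4.0.16 fit (R 4.3.3), with 16280 genes after filterByExpr, TMM scaling, robust dispersion (common coefficient of biological variation 0.145), 1 mean per group and 16 residual degrees of freedom. Two-sided quasi-likelihood p-values were Benjamini-Hochberg adjusted over all genes in each of 13 comparisons, and genes under 0.05 were called. CPM were computed on TMM-scaled totals. As SE, the size of the log2 change over the root of its F statistic was used, and correlations took log2 CPM with a prior count of 2. On simulated counts for shMed12 against shNMC in mESCs, 166 of 200 changed genes among 16166 were called, beside 4 unchanged genes. The simulated libraries were drawn independently and the 200 genes were changed by set folds, whereas 40.5% of genes were called in the real comparison. The simulation therefore does not give the error rate of the real test.

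Alternatives were DESeq2 1.42.0, other scalings and filters, fewer libraries, a replicate block and each library left out. Deviations from group means were correlated between same-numbered libraries to see whether numbers pair them. This exceeded 0.1 in all 3 pairs for RA shCdk8 with RA shNMC (0.475, 0.287 and 0.537), RA with mESC shCdk8 (0.358, 0.169 and 0.371) and mESC shMed12 with shCdk8 (0.195, 0.157 and 0.339), a pairing seen in the data that the labels do not state.

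The 10 genes and the gene lists were chosen with earlier results of these data known. Besides the 10 genes, the text names the hairpin targets, mESC markers, up to 6 called genes with the lowest p of each list and the 8 genes most like the members. Dux was added after its values were seen. Promoters came from a RefSeq table and transcript windows from GENCODE M21, matched by symbol for 9 genes and by synonym for Dub1.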

Additional observations from a re-analysis of the deposited data

How the results depend on the processing

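All 10 genes kept their direction and their call with shMed12 against shNMC in mESCs under each alternative, and with shMed12 against shCdk8 in mESCs likewise. The counts below are called genes, with the value of the fit over 24 libraries given first and the range over left-out libraries last. The fit over 18 libraries estimates the spread without the untransfected and shRing1b libraries. For Zscan4a with shCdk8 in mESCs, log2 was -1.50 (SE 0.42) over 24 libraries and -1.51 (SE 0.27) over 18. The cause of each move was not tested. With shCdk8 against shNMC in mESCs the members called were 2, against 1 with library totals, 0 with no filter on low counts, 6 with the replicate block, 7 with the 18 libraries alone, 7 (of 9 tested) with only the groups compared, 5 with DESeq2, and 0 to 0. Over all genes they were 596, against 905 with the block, 2645 with 18 libraries, 2334 with only the groups compared, 1147 with DESeq2, and 170 to 282. After RA the members with shCdk8 were 3, against 7 with the block, 9 with 18 libraries, 10 with 18 libraries and the block, 7 with only the groups compared, and 0 to 5. All genes were 1259, against 3760 with 18 libraries, 5995 with 18 libraries and the block, 2744 with only the groups compared, and 482 to 922.

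With shMed12 after RA the members were 9, and 2 to 9 with a library left out. Between shMed12 and shCdk8 in mESCs all genes were 5833, against 9479 with 18 libraries and the block. For shRing1b the members were 10, against 0 with only the groups compared, and 9 to 10, and all genes were 2459, against 0 with only the groups compared, 1328 without untransfected library 3 and 3900 without shRing1b library 3. For shNMC against untransfected cells all genes were 1, against 0 with only the groups compared.

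For RA against mESCs the members in shNMC cells were 3, against 1 with no filter, 6 with only the groups compared, and 1 to 5. In shCdk8 cells they were 2, against 4 with library totals, 1 with no filter, 4 with the block, 8 with 18 libraries and the block, 8 (of 9 tested) with only the groups compared, and 1 to 3. With only the groups compared, 5007 of 15527 genes tested rose in shNMC cells and 5252 of 15656 in shCdk8 cells. In shMed12 cells the members were 0, against 1 with only the groups compared. There Tdpoz3 (log2 -0.21, not called) ranged from -0.48 to 0.022 and Tdpoz4 (0.09, not called) from -0.20 to 0.33 with a library left out, so both changed sign. The interaction of shMed12 with RA gave 820 genes, against 2642 with 18 libraries, 2237 with only the groups compared, 1250 with DESeq2, and 489 to 830. That of shCdk8 with RA gave 6 genes, against 11 with the block, 67 with 18 libraries, 38 with only the groups compared, 27 with DESeq2, and 3 to 6.

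The block moved no other count of calls by over 1.5 times. Where fewer than 3 pairs correlated above 0.1, the numbers were not taken as pairs: the correlations were -0.05, 0.16 and 0.35 for shCdk8 against shNMC in mESCs. For shMed12 against shNMC after RA they were 0.320, 0.067 and 0.355, so the limit of 0.1 decides there. The fit of 18 libraries with the block was chosen after seeing the data, as was leaving out libraries from the summed level of the 10 genes. Depth limits Tdpoz4 most, with 13 counts over the 3 shCdk8 mESC libraries.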

Other observations

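The ratio of Dub1 to Zscan4d CPM differed between the groups. It was 0.307 to 0.366 in shNMC mESCs and 0.707 to 0.819 after RA, and 0.488 to 0.522 in shCdk8 mESCs and 1.11 to 1.2 after RA, so the RA libraries did not overlap the mESC libraries in either line. In shMed12 cells it was 0.384 to 0.403 in mESCs and 0.444 to 0.581 after RA. Untransfected cells had 0.351 to 0.396, and the shRing1b libraries spread from 0.296 to 0.754.

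The ratio of Zscan4d to Zscan4a, a pair that shares part of its sequence, was 1.2 to 1.35 in the shRing1b libraries and 0.608 to 0.868 in untransfected cells of the same technical set. It was 0.796 to 0.898 in shNMC, 0.983 to 1.11 in shCdk8 and 0.950 to 1.08 in shMed12 mESCs, and 0.743 to 0.996, 0.980 to 1.35 and 0.949 to 0.9996 in the same lines after RA. These ratios were chosen after their values were seen, were not tested, and compare raw CPM without transcript length.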
